A study of Drosophila melanogaster with 2 samples.

Results

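Regions bound by toe (twin of eyegone) were examined at 8 genes of the JAK/STAT pathway of Drosophila melanogaster: upd1, upd2, upd3, dome, hop, Stat92E, Socs36E and Ptp61F. The members were taken by their Ensembl symbols, all 8 were found, and they are 8 of 13968 protein-coding genes. The data are chromatin immunoprecipitation followed by sequencing, with an antibody to green fluorescent protein, from whole adult males of a transgenic line that stably carries toe with the fluorescent protein fused to its C-terminus. There is 1 group with 2 biological replicates, numbered 2 and 3. The age of the flies is given as unknown in the labels, and a control experiment is named there but is not analysed here. All flies carried the tagged construct, and no label says what drives it or whether untagged toe was also present. The material is whole flies, so a weak signal shared by many cells and a strong signal in few cells cannot be told apart.

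In flies, the secreted Unpaired ligands bind the receptor Domeless, which activates the Janus kinase Hopscotch, and the kinase phosphorylates the transcription factor Stat92E. Activated Stat92E switches on target genes, and Socs36E is one of them and acts back on the pathway as an inhibitor. In the larval eye disc the toe paralogue eyegone acts downstream of Notch and upstream of upd1 in growth of the eye. The flies here were adult, and whether any region changes transcription was not measured.

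Each region in the lists has a signal, which is the authors' own value on a scale that no label or file states, and a rank by that signal within its list. The pooled list and each replicate's list held 30000 regions, peaks and background together. The authors' list of reproducible peaks held 3469, with signals from 58.2 to 3278 and a median of 102. A region was placed at the promoter when its summit lay within 500 bp of an annotated start site of the gene, in the body when it lay elsewhere inside the gene, and near the gene when it lay within 10 kb of either end. Distances are signed along the direction of transcription, so a minus sign means upstream, and they are taken to the nearest start site of the gene unless another is named. Read depth is unknown because the lists hold no counts.

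The receptor gene dome and the phosphatase gene Ptp61F had reproducible peaks at a promoter, the transcription factor gene Stat92E and the feedback inhibitor gene Socs36E had them in introns, and the ligand genes had none within 10 kb. A promoter peak was therefore found at 2 of the 8 genes (25.0%), beside 19.3% of all protein-coding genes, which is near the background. A body peak away from the start sites was found at 2 of the 8 genes, beside 5.33% of all protein-coding genes. Any reproducible peak at the promoter, in the body or within 10 kb was found at 5 of the 8 genes (62.5%), beside 55.2%. The members are longer than most genes, with a median of 7411 bp against 2164.5 bp over all protein-coding genes, and the 744 genes with a body peak had a median length of 14697 bp. The part of gene length in the count of body peaks was not tested.

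In all, 17 reproducible peaks lay at the members, 2 at promoters, 6 in gene bodies and 9 nearby. All 6 body peaks were intronic. For 8 of the 17 peaks the nearest start site was one of the member's own, and for the other 9 it belonged to a neighbouring gene. Their signals ran from 61.0 to 321 with a median of 96.4, close to the median of 102 over the whole reproducible list. Each of the 17 had the same signal and rank in the pooled list as in the reproducible list. Both of these lists held 3011 regions with a q-value under 0.05. Of the 17 peaks, 15 had a q-value under 0.05, and the exceptions were the intronic Stat92E peaks with summits 5290 bp and 3752 bp from the start site.

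**Figure D1:**
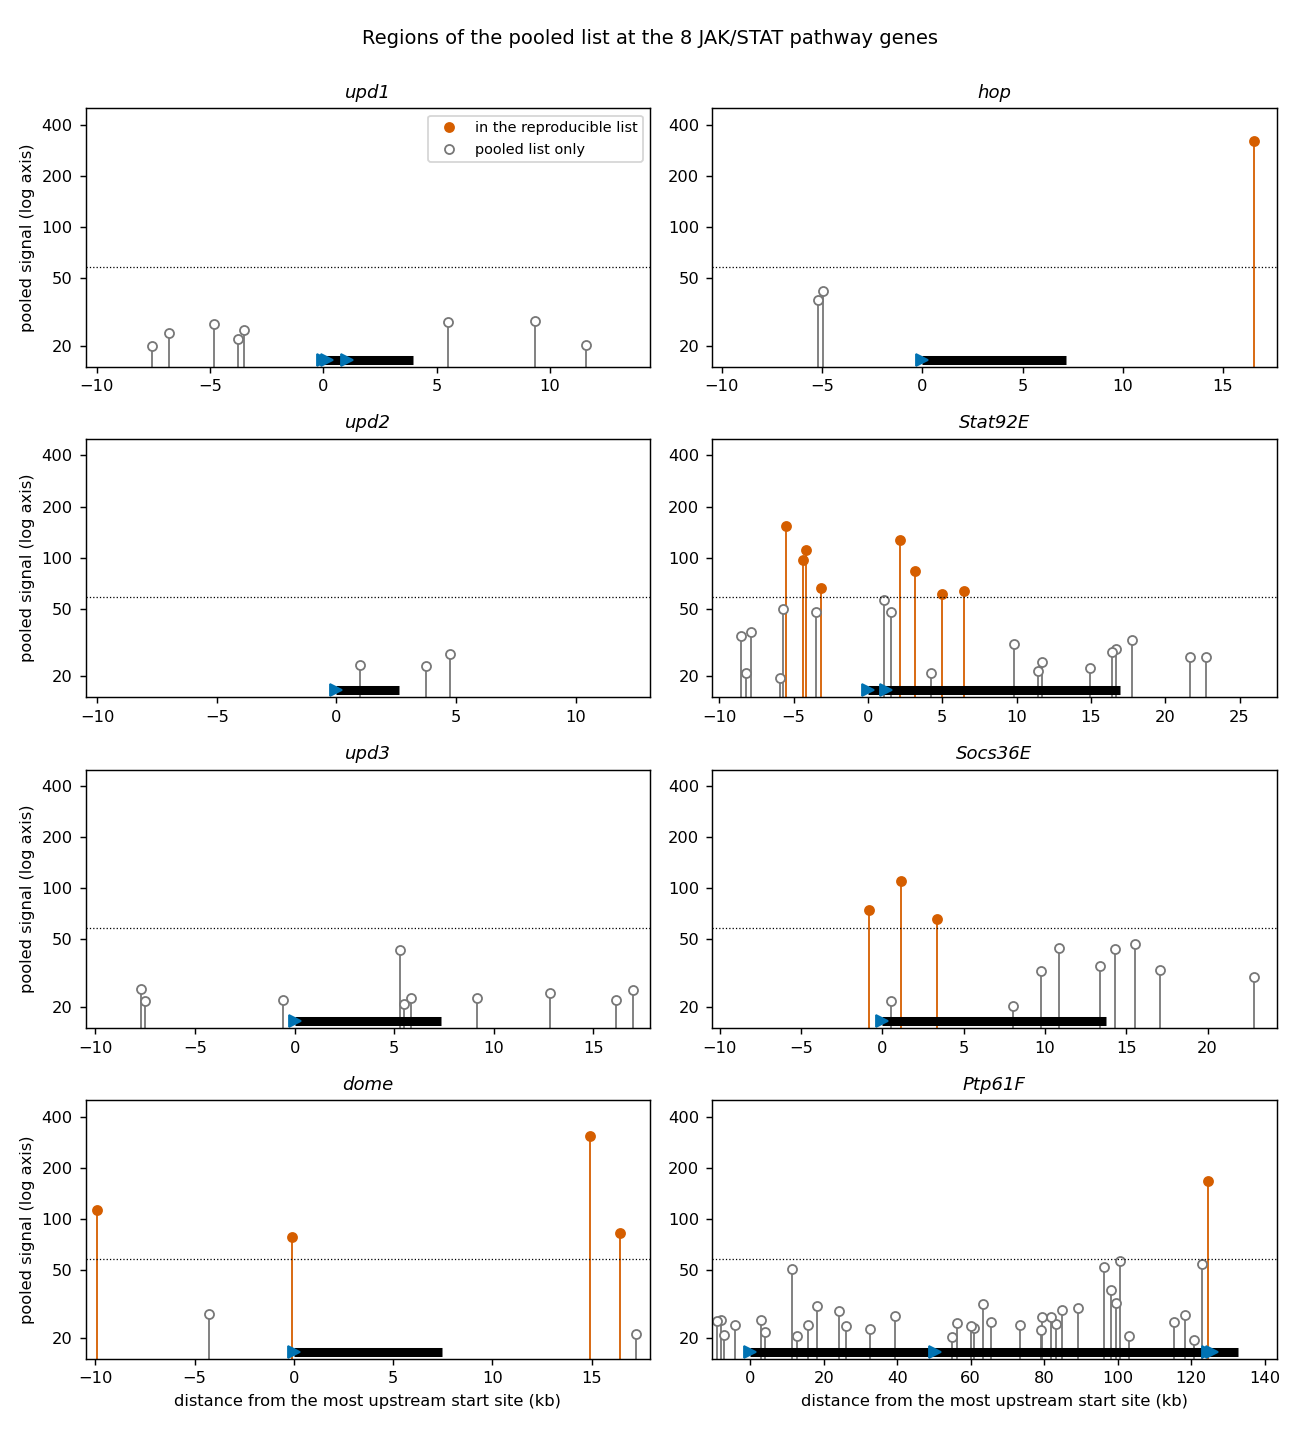
Regions of the pooled list at each of the 8 genes, plotted as the distance of the summit in kb from the most upstream start site along the direction of transcription (x axis) against the authors' pooled signal (y axis, logarithmic). Filled orange points are in the reproducible list and open grey points are not, the dotted line is its lowest signal of 58.2, black bars are genes and blue arrowheads are annotated start sites. Stat92E has the most filled points (8) and the 3 ligand genes have none.

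The ligand genes upd1, upd2 and upd3 encode the secreted cytokines of the pathway and lie close together on the X chromosome. None had a reproducible peak. The nearest reproducible summit to all 3 genes was the same one, with a signal of 69.6, and it lay 10988 bp from the nearest start site of upd1, 43046 bp from that of upd3 and 76995 bp from that of upd2. It was itself 914 bp from a start site of CG6023.

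Weaker regions were listed at the ligand genes, and the strongest lay in an intron of upd3. It ranked 5044 in the pooled list with a signal of 43.3, below the reproducible list. It ranked 6316 in replicate 2 (signal 22.9) and 6729 in replicate 3 (signal 20.8), and both replicate summits lay within the bounds of the pooled region. At upd1 the strongest region in the pooled list ranked 12686 (signal 27.8) and lay 5411 bp beyond the 3′ end. The overlapping region in replicate 3 ranked 6338 there (signal 21.3), slightly above the upd3 intron. In replicate 2 no region overlapped this pooled one, and the strongest region at upd1 ranked 11695 (signal 17.1). At upd2 the strongest pooled region ranked 13630 and also lay outside the gene. At the promoters of these ligand genes the pooled list and the replicate 3 list held no summit. Replicate 2 held 1 at upd2 (rank 22556) and 1 at upd3 (rank 23014). The upd3 region overlapped a pooled region (rank 22659) with its summit 567 bp upstream, just outside the promoter window.

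The 201 bases centred on the pooled summit in the upd3 intron are shown because it was the strongest region at any ligand gene in the pooled list, on the plus strand of dm6 at chrX:18282417-18282617. In this and the later sequences, capitals mark matches to any of 10 short words searched on both strands: the DNA replication-related element TATCGATA and the CGATA inside it, the promoter word GGTCACACT, the GAGA repeat GAGAGAG, the E-box CAGCTG, the STAT word TTCNNNGAA, the homeodomain core TAATTA, the paired domain word GTCACGC, and the words ACAGTGG and AGTGTTG. A match on the other strand appears as its reverse complement, such as TATCG for CGATA. All sequences are from the RefSeq copy of the genome.
upd3 intron: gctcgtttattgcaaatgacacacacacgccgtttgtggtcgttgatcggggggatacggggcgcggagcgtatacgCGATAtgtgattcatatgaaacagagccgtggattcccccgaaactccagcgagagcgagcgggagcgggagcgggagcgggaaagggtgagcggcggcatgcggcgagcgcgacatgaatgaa

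The upd3 window held CGATA and none of the other 9 words. Over the windows of 100 bp on either side of all 3469 reproducible summits, CGATA occurred in 35.3%, TAATTA in 17.0%, CAGCTG in 10.8%, AGTGTTG in 7.98% and ACAGTGG in 7.38%. The STAT word occurred in 5.33%, GAGAGAG in 5.19%, TATCGATA in 5.04%, GGTCACACT in 2.02% and GTCACGC in 0.663%. A match is a description of the letters and not evidence of binding by any factor.

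The receptor gene dome, on the minus strand of X (19676061 to 19683518), carried a promoter peak from 19683403 to 19683822. Its summit was 95 bp upstream of the only annotated start site of dome and in intergenic sequence. The peak ranked 2459 in the pooled list with a signal of 77.9. It ranked 2579 in replicate 2 (signal 46.3) and 4660 in replicate 3 (signal 25.0), so it was among the 3469 strongest regions in replicate 2 and not in replicate 3. The replicate summits lay 5 bp (replicate 2) and 1 bp (replicate 3) from the pooled one. The promoter of Ubqn also takes in this summit. Ubqn encodes ubiquilin, a ubiquitin-binding shuttle protein, and the lists do not assign the peak to either gene.

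The sequence around the dome summit is shown because it carries the densest run of CGATA at any of the 17 peaks. It is given on the minus strand at chrX:19683519-19683713 and was trimmed so that no annotated untranslated region is included.
dome promoter: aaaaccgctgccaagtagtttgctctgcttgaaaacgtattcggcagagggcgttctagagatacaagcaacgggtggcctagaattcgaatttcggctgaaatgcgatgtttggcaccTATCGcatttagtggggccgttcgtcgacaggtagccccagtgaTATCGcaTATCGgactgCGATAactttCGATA

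The window held CGATA 5 times, counting both strands, and no other word. Among all 3469 reproducible summit windows, 30 (0.865%) held at least 5 copies.

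The other 3 reproducible peaks within 10 kb of dome lay at neighbouring genes. The strongest (signal 307, rank 317) was in an intron of Zw, which encodes glucose-6-phosphate dehydrogenase, 7470 bp beyond the 3′ end of dome. It ranked 310 in replicate 2 and 356 in replicate 3. A peak with a signal of 82.9 had its summit 143 bp from a start site of Zw, and a peak with a signal of 113 lay 80 bp from a start site of Mer, the fly gene for the tumour suppressor Merlin. All 3 stood closer to start sites of other genes than to dome, and no reproducible peak lay inside dome itself.

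The kinase gene hop, on the minus strand of X (11360930 to 11368098), had no region at its promoter and none in its body in any of the 4 lists. The single reproducible peak within 10 kb lay 9367 bp beyond its 3′ end, in an intron of CG1737, 955 bp from a start site of that gene. It was the strongest of the 17, with a pooled signal of 321 and rank 288, and it ranked 365 in replicate 2 (signal 171) and 254 in replicate 3 (signal 139). Its window held CGATA 2 times and ACAGTGG 2 times, and 20 of all 3469 windows (0.577%) held at least 2 copies of ACAGTGG. Upstream of hop, the pooled list held 2 weaker regions, 4973 and 5207 bp from the start site (signals 41.9 and 37.0). They were 46 and 280 bp from start sites of dlg1, the polarity gene discs large. Each replicate list also held a region closer to hop, in an intron of dlg1, where the pooled list held none. It lay 2927 bp upstream in replicate 2 (signal 27.4, rank 4821) and 2860 bp upstream in replicate 3 (signal 23.0, rank 5393).

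Stat92E, the transcription factor of the pathway, had more reproducible peaks than any other member. The gene lies on the minus strand of 3R (20535323 to 20552311) and has start sites at 20552311 and 20551107. Within its 16989 bp and 10 kb on either side lay 8 reproducible peaks, 4 in introns and 4 upstream, or 2.16 per 10 kb. Of all protein-coding genes, 44 (0.315%) had at least 8 on the same count, and 32 of those 44 were no longer than Stat92E.

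**Figure D2:**
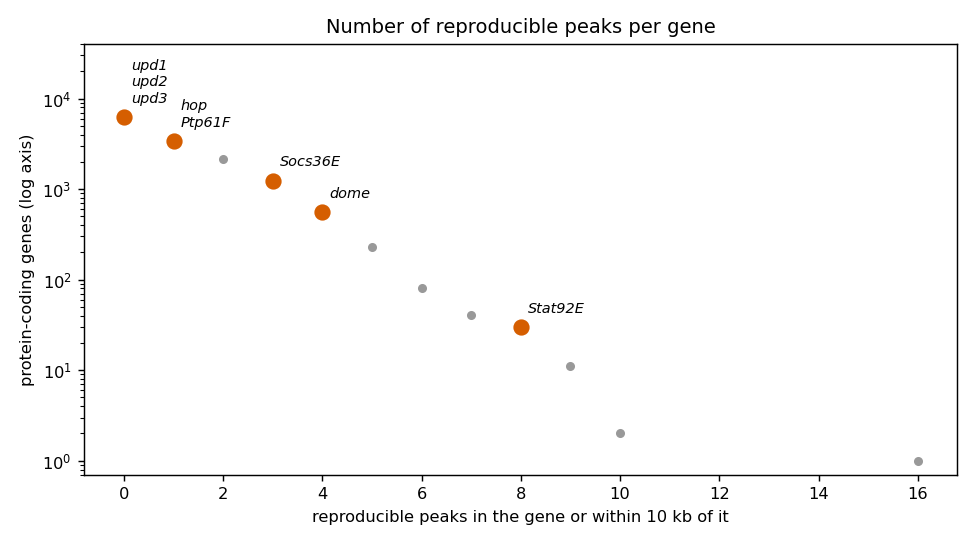
Number of protein-coding genes (y axis, logarithmic) with each number of reproducible peaks inside the gene or within 10 kb of its ends (x axis). Orange points are the bins that hold the 8 pathway genes, and grey points are the others. upd1, upd2 and upd3 are among the 6257 genes with 0 peaks, and Stat92E has 8.

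The 4 intronic Stat92E peaks decreased in signal from the downstream start site inward except for the last pair. The peak 948 bp into the gene from that start site had a pooled signal of 127 (rank 1313), with 76.7 in replicate 2 (rank 1374) and 57.1 in replicate 3 (rank 1352). The peak at 1941 bp had a pooled signal of 83.4 (rank 2234), with 39.9 in replicate 2 (rank 3114) and 41.7 in replicate 3 (rank 2143). Both were among the 3469 strongest regions of each replicate.

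The peaks at 3752 and 5290 bp had pooled signals of 61.0 and 64.0 (ranks 3274 and 3110). In replicate 2 they ranked 4945 and 3907, and in replicate 3 they ranked 3469 and 2980. These weaker intronic peaks were thus among the 3469 strongest in replicate 3 alone, and the one at 3752 bp was there in the last place.

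The intronic window at 1941 bp is shown because it is the only one of the 17 with the homeodomain core. It is on the minus strand at chr3R:20549066-20549266.
Stat92E intron, 1941 bp: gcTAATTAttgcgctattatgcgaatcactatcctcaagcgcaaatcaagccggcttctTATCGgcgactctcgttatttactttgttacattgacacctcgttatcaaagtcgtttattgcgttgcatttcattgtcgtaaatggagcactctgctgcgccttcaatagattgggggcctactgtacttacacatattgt

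The window held CGATA and TAATTA once each.

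The promoter of Stat92E fell just below the reproducible list. In the pooled list its strongest promoter region peaked 141 bp upstream of the start site at 20551107, which is intronic for the longer transcripts, with a signal of 56.5 and rank 3601, under the lowest reproducible signal of 58.2. In replicate 2 the corresponding summit lay 143 bp upstream and ranked 3971 (signal 32.4). In replicate 3 a summit 199 bp upstream ranked 3821 (signal 27.9). The summit with the higher signal in replicate 3 was another one, 329 bp downstream of the start site in the 5′ UTR, which ranked 1848 (signal 46.3). The pooled list had that downstream region at rank 4396 (signal 48.1), and replicate 2 had no promoter region there.

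The window at the upstream Stat92E promoter summit is shown as the member promoter closest below the limit of the reproducible list, on the minus strand at chr3R:20551148-20551348.
Stat92E promoter: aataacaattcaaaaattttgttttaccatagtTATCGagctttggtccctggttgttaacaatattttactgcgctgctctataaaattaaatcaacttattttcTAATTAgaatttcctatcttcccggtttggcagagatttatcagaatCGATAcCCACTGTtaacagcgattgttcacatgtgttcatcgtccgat

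This window held CGATA 2 times, TAATTA once and ACAGTGG once.

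The 4 peaks upstream of Stat92E had pooled signals from 66.2 to 155, and all had a start site of DPCoAC as the nearest. The strongest of them, 5484 bp upstream of Stat92E, had a pooled signal of 155 (rank 1038) and ranked 946 in replicate 2 and 1423 in replicate 3. It peaked 128 bp from DPCoAC, and the promoter of CG5180 also took in the summit. The peaks 4131 and 4330 bp upstream had signals of 111 and 96.4 and overlap each other. The peak 3129 bp upstream had a pooled signal of 66.2, and the overlapping region in replicate 2 ranked 3796. In replicate 3 it overlapped 3 regions, of which the one with the closest summit ranked 8449 (signal 18.9) and the strongest ranked 2282 (signal 39.8).

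Socs36E, whose product dampens JAK/STAT signalling, lies on the minus strand of 2L (18138675 to 18152417) and had 2 reproducible peaks in introns and 1 upstream. The intronic peak 1171 bp from the start site was the strongest, with a pooled signal of 111 (rank 1583), 76.0 in replicate 2 (rank 1382) and 34.8 in replicate 3 (rank 2731). The intronic peak at 3385 bp had a pooled signal of 65.8 (rank 3004), 20.5 in replicate 2 (rank 7748) and 44.2 in replicate 3 (rank 1967). The order of these peaks differed between the replicates: the first was higher in replicate 2 and the second in replicate 3.

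The peak upstream of Socs36E lay 802 bp from the start site by its summit, with a pooled signal of 74.1 (rank 2609). It ranked 4021 in replicate 2 (signal 32.1) and 2017 in replicate 3 (signal 43.3). Its summit lay in the 5′ UTR of CG17681, 96 bp from a start site of that gene. At the promoter of Socs36E itself replicate 3 had a region 493 bp inside the start site (rank 2952, signal 33.0), the pooled list had one at rank 23550, and replicate 2 had none.

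Both intronic Socs36E windows are shown because the one at 3385 bp was the only 1 of the 17 member windows with the STAT word, and the one at 1171 bp was the stronger. They are on the minus strand at chr2L:18151146-18151346 and chr2L:18148932-18149132.
Socs36E intron, 1171 bp: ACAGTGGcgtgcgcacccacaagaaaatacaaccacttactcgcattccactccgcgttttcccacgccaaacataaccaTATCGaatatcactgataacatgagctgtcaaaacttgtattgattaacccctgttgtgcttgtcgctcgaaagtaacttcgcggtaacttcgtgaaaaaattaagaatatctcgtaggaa
Socs36E intron, 3385 bp: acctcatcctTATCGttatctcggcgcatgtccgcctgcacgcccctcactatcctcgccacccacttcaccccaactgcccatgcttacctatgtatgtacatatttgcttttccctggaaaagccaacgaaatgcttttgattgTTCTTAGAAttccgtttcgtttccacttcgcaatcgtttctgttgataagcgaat

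The stronger window held ACAGTGG and CGATA. The weaker one held CGATA besides the STAT word.

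Ptp61F encodes a protein tyrosine phosphatase that removes phosphate from pathway components and so restrains signalling. It is the longest member, spanning 132765 bp on the minus strand of 3L (1342493 to 1475257) with 4 annotated start sites, and it had 1 reproducible peak (0.07 per 10 kb of gene and flanks). The peak covered 1350546 to 1350965 and was highest 157 bp upstream of the start site at 1350599. For transcripts that begin farther upstream this position is intronic. Its pooled signal of 168 (rank 923) was the highest at any member promoter. CG9166 also has a start site less than 500 bp from the summit.

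The replicate lists differed at this promoter. Replicate 2 had 2 overlapping regions there, with summits 53 and 257 bp upstream of the start site, signals of 97.1 and 51.0, and ranks 1015 and 2311. Replicate 3 had no region overlapping the peak among its 30000, so of the 2 replicate lists only that of replicate 2 holds it. A missing region does not show that the site was unbound in that replicate. Of all 3469 reproducible peaks, 52 had no overlapping region in replicate 3 and 22 had none in replicate 2. A place in the reproducible list thus does not mean that each replicate list holds an overlapping region. Among the 1000 reproducible peaks with the highest signal, 8 had none in replicate 3. At the most upstream start site of Ptp61F (1475257), replicate 3 had a weak region with rank 9189 (signal 18.2).

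The Ptp61F window is shown because this is the strongest member promoter and the only member window with the full DNA replication-related element. It is on the minus strand at chr3L:1350656-1350856.
Ptp61F promoter: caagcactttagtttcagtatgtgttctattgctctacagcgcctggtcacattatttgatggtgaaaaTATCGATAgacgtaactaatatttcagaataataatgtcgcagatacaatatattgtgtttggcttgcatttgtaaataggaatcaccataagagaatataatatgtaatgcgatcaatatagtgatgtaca

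The window held TATCGATA once, which accounts for both matches to CGATA, since the word reads the same on the 2 strands and contains CGATA on each.

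Along the rest of Ptp61F, 32 regions of the pooled list lay in the body, all below the reproducible list. The strongest were 24020 bp upstream of the same start site, in an intron that Ptp61F shares with ru (signal 56.2, rank 3620), and 1700 bp upstream of it, in the 3′ UTR of CG9166 (signal 54.5, rank 3747).

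Among the 3469 strongest regions of replicate 2 there were promoter regions at dome and Ptp61F, that is 2 of 8 members, beside 21.1% of all protein-coding genes. Among the 3469 strongest of replicate 3 there were promoter regions at Stat92E and Socs36E, again 2 of 8, beside 19.7%. No member was in both of these sets, beside 16.0% of all protein-coding genes. This depends on the cut at rank 3469, since dome ranked 4660 in replicate 3 and Stat92E ranked 3971 in replicate 2. Ptp61F ranked 9189 in replicate 3, at another start site, and Socs36E had no promoter region in replicate 2. Membership of the sets also depends on the 500 bp window, since the Socs36E summit in replicate 3 lay 493 bp from the start site. Of all protein-coding genes, 5.14% were in the set of replicate 2 and not in that of replicate 3, and 3.74% the other way round. Counting regions of any rank, 4 of 8 members had one at a promoter in the pooled list beside 41.9% of all protein-coding genes, 5 in replicate 2 beside 45.1%, and 4 in replicate 3 beside 44.2%. dome, Stat92E and Ptp61F had one in both replicates, at Ptp61F with different start sites.

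**Figure D3:**
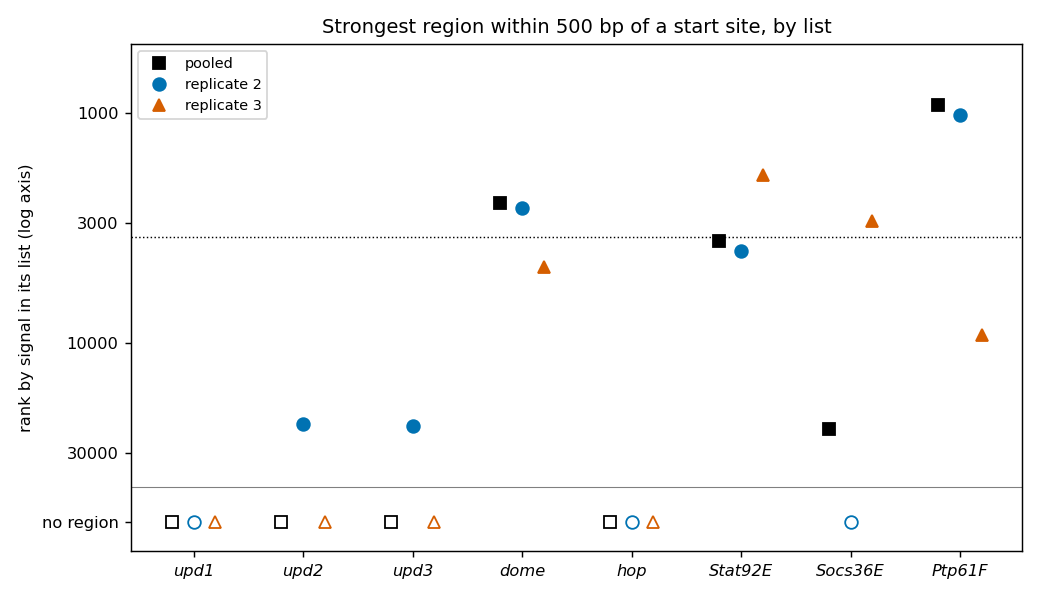
Rank by signal (y axis, logarithmic, strongest at the top) of the strongest region within 500 bp of any start site of each gene, in the pooled list (squares), replicate 2 (circles) and replicate 3 (triangles). Open symbols mean that the list holds no such region, and the dotted line is rank 3469. dome and Ptp61F are above the line in replicate 2 and Stat92E and Socs36E in replicate 3, and the regions of the lists can be different ones at Stat92E and Ptp61F.

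With each reproducible peak matched to the overlapping replicate region whose summit was closest, 12 of the 17 member peaks (70.6%) were among the 3469 strongest regions of replicate 2, beside 83.0% of all reproducible peaks. For replicate 3 the count was 13 (76.5%), beside 78.1%, and for both it was 9 (52.9%), beside 66.1%. With the strongest overlapping region in place of the closest, an alternative added after the data were seen, the counts were 12 in replicate 2, 15 in replicate 3 and 10 in both (58.8%, beside 70.3%). Both dome and hop had a peak close to a neighbouring gene that ranked between 254 and 365 in each list, and among the 17 reproducible member peaks these had the highest signals in each replicate. The text draws no difference in signal between replicates, since their scales may differ.

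**Figure D4:**
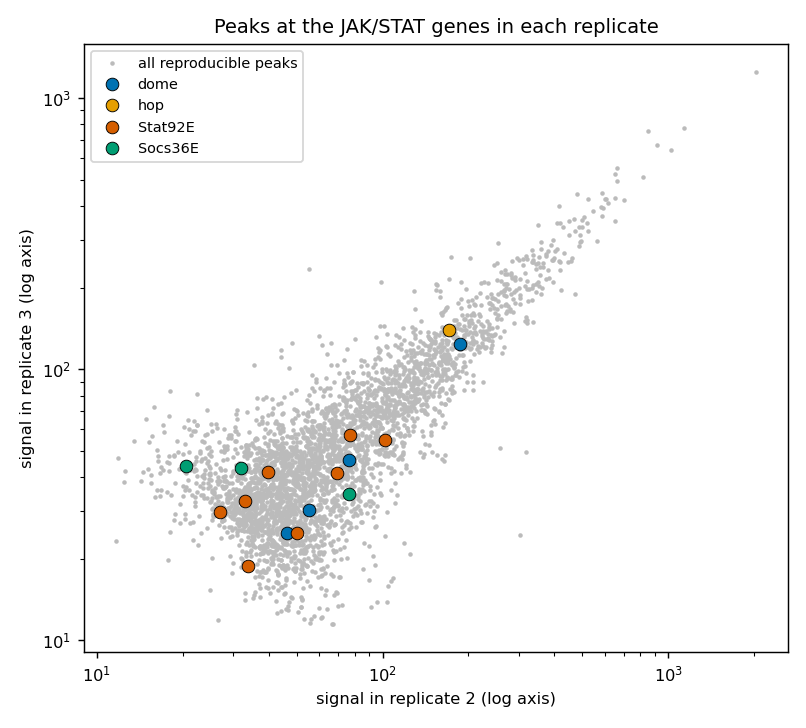
Signal in replicate 2 (x axis) against signal in replicate 3 (y axis), both logarithmic, for reproducible peaks with an overlapping region in each replicate. Grey points are all such peaks and coloured points are those at the pathway genes. The Ptp61F peak is missing because replicate 3 had no region there, and the Socs36E points at 20.5 and 32.1 on the x axis rank 7748 and 4021 in replicate 2, and 1967 and 2017 in replicate 3.

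Of 17 member windows, 12 (70.6%) held at least 1 of the 10 words, beside 65.2% of all 3469 windows. CGATA was in 10 of 17 beside 35.3%, and ACAGTGG in 5 of 17 beside 7.38%. The 5 with ACAGTGG were the intronic Socs36E peak at 1171 bp, the Stat92E peaks 4330 and 5484 bp upstream, the Zw intron peak and the CG1737 intron peak. All of these but the Socs36E peak had a start site of another gene as the nearest. Among the windows with CGATA, the same held for the peaks at Zw, Mer and CG1737, and the others were nearest to a member's own start site. The GAGA repeat, the paired domain word and AGTGTTG were in none of the 17. The median share of G and C was 42.8% over the member windows and 36.8% over all windows.

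In rank, the gene promoters next to dome were those of CG9953 and Mis12, which share the peak at rank 2458 (signal 77.9), and of Mpcp1 at rank 2461. Next to Ptp61F were Ptpmeg and mth at rank 922 (signal 169) and Mau2 and Spn88Eb at rank 925 (signal 168). Rank in the pooled list is the measure of likeness here, and it says nothing of shared function. eyg itself had a promoter peak at rank 582 (signal 224), above those of dome and Ptp61F, and toe had one at rank 1998 (signal 92.0), between them.

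Beyond the 8 members, a chosen list of 20 genes linked to the pathway was read, and not all of them are core components of it. They are called further pathway genes here. Of these, 5 had a reproducible promoter peak (25.0%), beside the same 19.3% of all protein-coding genes. The bromodomain gene BRWD3 had 2 overlapping ones (signals 194 and 73.9), both shared with the promoter of Nab2. asrij, which encodes an endosomal protein of blood cells, had one with a signal of 134, shared with YME1L. The regulatory gene apt, which limits the pathway in border cells of the ovary, had promoter peaks at separate start sites with signals of 130 and 101. The suppressor gene Socs16D had one with its summit 8 bp from a start site (signal 80.7), and the ETS factor gene pnt had one with a signal of 61.0. The other 15 genes had none: et, Socs44A, Su(var)2-10, E(bx), ken, chinmo, zfh1, slbo, CycD, Cdk4, TotA, TotM, Tep1, Tep2 and vir-1. A peak at a promoter, in the body or within 10 kb was found at 12 of the 20 (60.0%), beside 55.2%.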

How the data were processed

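The samples were 2 biological replicates of toe immunoprecipitation in 1 group, on dm6. Per the files' notes, the authors called regions per replicate and on the pooled alignments, each time against a control, and derived the reproducible list by the irreproducible discovery rate. The deposited signal score of each region is the authors' value on a scale that is not given. The deposited −log10 q-value was read by the usual layout of the file type and used only for a threshold of 0.05. Depth is unknown, and the aligner and caller used were not given in the sources used here. Lists on dm3 were not used.

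Ensembl release 115 (BDGP 6.54) supplied gene models, leaving out transposable elements, and RefSeq supplied the sequence of the same assembly. Coordinates count from 1. Regions were placed by summit, ranked by signal, and matched across lists by an overlap of at least 1 bp and the closest summit, with Python 3.11.15, pandas 2.3.3 and pysam 0.24.0. The placing of regions at genes was tested on simulated data. With 1 group, no test between conditions was made. Alternatives were other promoter windows and distances, overlap in place of summit, stricter thresholds, RefSeq start sites, and each replicate alone. The text names all 8 members, the further pathway genes with a promoter peak, genes that share a summit, and neighbours in rank. The neighbouring genes named and the list of pathway genes with no promoter peak were chosen after their values were seen. The members and the lists of genes and words were chosen with earlier results of these data known. An item withheld from the text is not reported here.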

Additional observations from a re-analysis of the deposited data

How the results depend on the processing

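Of the recomputed counts, 21 stayed within 1.5 times the reported one and 4 did not. Among the 1734 strongest reproducible peaks, 1 member kept a promoter peak (Ptp61F), 8 peaks lay at the members and 3 further pathway genes had a promoter peak (asrij, BRWD3 and apt). With a promoter window of 1000 bp, 4 members had a promoter peak, Stat92E and Socs36E being added. Stat92E entered through its intronic peak at 948 bp. Socs36E entered through the peak 802 bp upstream, whose summit lay in the 5′ UTR of CG17681. Using each replicate alone, members with a promoter region among the strongest numbered 2 either way, but they were different genes. Peaks at the members ranged from 14 without replicate 3 to 21 without replicate 2. Further pathway genes stayed at 5, with ken in place of pnt without replicate 3. Members with any promoter region ranged from 4 to 5. No paired analysis was possible because there is 1 group. RefSeq start sites were tried for the members only. With 2 replicates and no read counts, a region missing from a list is not shown to be unbound.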

Other observations

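Among the 1000 strongest regions of replicate 2, 790 overlapped one of the 1000 strongest of replicate 3, and 17 of these (2.15%) had no overlapping region in the pooled list of 30000. The reproducible peaks at the members were drawn from the pooled list and so count no such region. The cause was not tested.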
